A study of Mus musculus with 4 samples.

Results

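The complement cascade was followed through 9 genes in the inguinal white fat of the mouse, which lies under the skin. C1qa, C1qb and C1qc encode the recognition chains of the classical pathway, C1ra and C1s1 its proteases, C4b and C3 the proteins that are cleaved and deposited on targets, Cfd the alternative pathway protease adipsin, and Serping1 the inhibitor of the C1 proteases. The 9 were chosen by name with the differences between these very libraries already known, so their fold changes describe them and support nothing further. All 9 had a value, among 13677 genes in the table. RNA sequencing covered 4 libraries, 2 of wildtype animals (WT) and 2 labelled as a folliculin adipose knockout (FLCNKO), and the series asks how folliculin and mTOR relate to browning of fat. The sources used here do not give strain, age, sex, diet or the promoter that drives the deletion. They also do not say whether the libraries of a group came from separate animals, so the errors may be technical. The deposited values are on a log2 scale with nearly the same distribution in every library, and their depth is unknown.

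Complement is a set of secreted proteins that mark particles and cells for removal. In the classical pathway C1q binds its target and activates C1r and then C1s, which cleaves C4 and C2, and the resulting enzyme cleaves C3. In the alternative pathway factor D cleaves factor B bound to C3 fragments. Adipocytes are the best known source of factor D, tissue macrophages of C1q, and fibroblasts and other stromal cells secrete C1r, C1s, C3 and C4. Soluble and membrane-bound regulators such as C1 inhibitor and CD55 limit the cascade.

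Promoter windows of RefSeq (GRCm38.p6) were matched by symbol for 6 of the 9 genes: C1qb, C1qc, C1ra, C1s1, C3 and Cfd. The windows of a pair of C1q chains, of C3 and of Cfd are shown because these genes stand for the recognition, effector and alternative pathway steps whose values follow. Each run holds the 250 bases before the annotated start, written 5′ to 3′ along the gene, and capitals mark motif matches.
C1qb (chr4:136886201-136886450, minus strand): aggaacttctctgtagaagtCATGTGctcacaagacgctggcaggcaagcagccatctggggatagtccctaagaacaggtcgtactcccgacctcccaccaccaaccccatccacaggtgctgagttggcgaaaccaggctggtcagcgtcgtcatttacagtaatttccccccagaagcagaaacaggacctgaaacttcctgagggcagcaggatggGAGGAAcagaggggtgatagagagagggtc
C1qc (chr4:136892915-136893164, minus strand): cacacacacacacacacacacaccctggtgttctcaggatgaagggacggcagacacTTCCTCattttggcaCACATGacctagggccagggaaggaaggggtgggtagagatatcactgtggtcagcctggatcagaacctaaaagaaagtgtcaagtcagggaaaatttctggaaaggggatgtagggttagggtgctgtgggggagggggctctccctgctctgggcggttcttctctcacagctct
C3 (chr17:57228137-57228386, minus strand): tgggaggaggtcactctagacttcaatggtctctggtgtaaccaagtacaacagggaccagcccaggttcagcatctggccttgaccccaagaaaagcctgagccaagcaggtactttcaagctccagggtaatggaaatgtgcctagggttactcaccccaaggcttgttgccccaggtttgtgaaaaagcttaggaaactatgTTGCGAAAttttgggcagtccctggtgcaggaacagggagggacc
Cfd (chr10:79890603-79890852, plus strand): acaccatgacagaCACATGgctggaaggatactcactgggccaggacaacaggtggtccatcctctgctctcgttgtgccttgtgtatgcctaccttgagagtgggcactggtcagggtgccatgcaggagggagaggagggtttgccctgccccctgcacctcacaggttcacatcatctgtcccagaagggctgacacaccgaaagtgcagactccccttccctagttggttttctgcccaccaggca
The 9 motifs were searched on both strands of the whole window, 250 bases before to 50 after the start, and no matches overlapped. CATGTG, an E-box of the kind that MiT/TFE factors can bind, occurred in C1qb 230 bases, in C1qc 178 bases and in Cfd 237 bases before the start, and in 14.2% of all 32851 windows. The PU.1 core GAGGAA occurred in C1qb 30 bases and in C1qc 193 bases before the start and in C1ra 45 bases after it, against 28.3% of all windows. The C/EBP motif TTGCNNAA occurred in C3 45 bases before the start, in C1ra and in 1 of 2 windows of C1s1, against 10.8% of all windows. The TATA box TATAAA lay in the C3 window alone among the 6 genes (15 bases after the start, 13.6% of all windows), and the gamma-activated site TTCNNNGAA in that of C1ra alone (8.3%). The E-box CACGTG (7.15% of all windows), the AP-1 motif TGANTCA (7.81%), the CCAAT box CCAAT (37.4%) and the interferon element, GAAA and GAAA with any 2 bases between (3.44%), had no match in these windows. These are matches of letters and say nothing of binding.

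All 9 genes were lower in the libraries labelled FLCNKO, by 1.86-fold for C1qb to 2.68-fold for C3. The median log2 fold change was -1.04, and that over all 13677 genes was 0.0046. In each of the 9 genes both FLCNKO libraries lay under both WT libraries, as did 25.4% of all genes. The distance between the lower WT and the higher FLCNKO library ran from 0.61 to 1.07 on the log2 scale. At an adjusted p under 0.05 limma called 3 of the 9 lower, C1qc, C1s1 and Serping1, against 0.614% of all genes, and at an unadjusted p under 0.05 it called 9 of 9, against 10.3%. These counts come from the contrast that was in view when the genes were chosen, and nothing is read from them. Leaving out WT replicate 1, WT replicate 2, FLCNKO replicate 1 or FLCNKO replicate 2 left 0 of 9 called at an adjusted p each time and 9 of 9 at an unadjusted p under 0.05. In each of those fits 0 of all 13677 genes were called, so the loss is not particular to the 9.

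**Figure D1:**
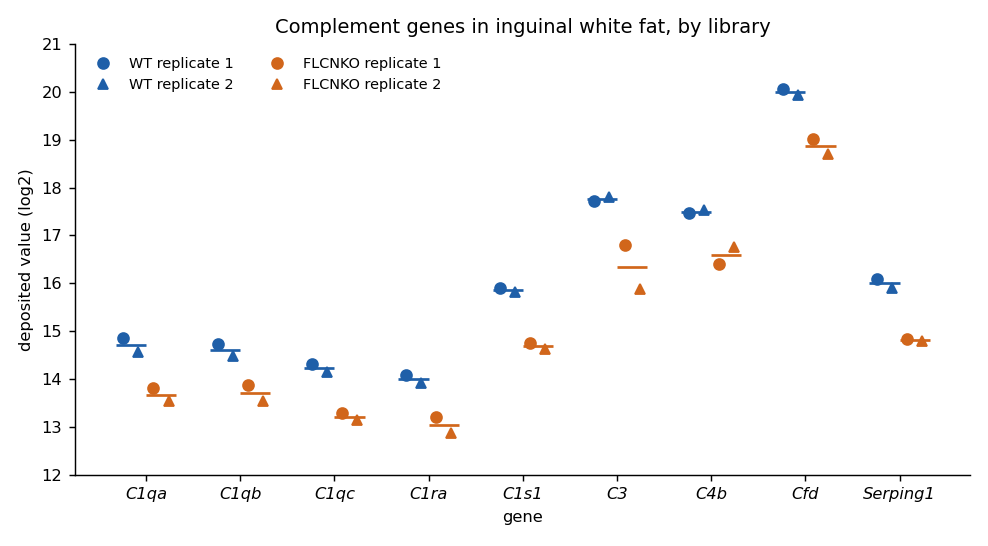
Deposited log2 value (vertical axis) of each of the 9 complement genes (horizontal axis) in the 4 libraries, with WT in blue and FLCNKO in orange, circles for replicate 1, triangles for replicate 2 and bars for the group mean. In every gene the WT points lie above the FLCNKO points, and the FLCNKO points of C3 lie furthest apart.

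The 3 C1q chains, which assemble into 1 recognition molecule, had close differences. C1qa (ENSMUSG00000036887) measured 14.85 and 14.56 in WT against 13.81 and 13.54 in FLCNKO, a log2 fold change of -1.04 ± 0.16 (SE, n = 2 per group). C1qb (ENSMUSG00000036905) had 14.73 and 14.49 in WT against 13.87 and 13.55 in FLCNKO, a log2 fold change of -0.90 ± 0.16. C1qc (ENSMUSG00000036896) had 14.32 and 14.14 in WT against 13.28 and 13.15 in FLCNKO, a log2 fold change of -1.01 ± 0.12. In all 3 chains the order of the libraries was WT replicate 1, WT replicate 2, FLCNKO replicate 1 and FLCNKO replicate 2 from high to low. Within a library the log2 difference of C1qa from C1qb was 0.12 and 0.08 in WT against -0.06 and -0.02 in FLCNKO, without overlap. With 2 libraries per group, no unequal change of the 2 chains is read from this. The difference of C1qa from C1qc was 0.54 and 0.42 in WT against 0.52 and 0.39 in FLCNKO, and these ranges overlapped.

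The genes of the C1 proteases lay in the same range. C1ra (ENSMUSG00000055172) measured 14.08 and 13.93 in WT against 13.20 and 12.88 in FLCNKO, a log2 fold change of -0.96 ± 0.15 (SE, n = 2 per group). C1s1 (ENSMUSG00000038521) had 15.91 and 15.81 in WT against 14.75 and 14.64 in FLCNKO, a log2 fold change of -1.17 ± 0.12. Both are uncertain as single genes, since 59.3% of the 31-base stretches of C1ra and 33.5% of those of C1s1 occur in transcripts of other genes, mainly their copies C1rb and C1s2. The mean of the 3 C1q chains minus the mean of C1ra and C1s1 was -0.36 and -0.47 in WT against -0.32 and -0.35 in FLCNKO. This difference moved by 0.08 between the group means (0.14 without WT replicate 1 and 0.025 without WT replicate 2). The WT libraries differed by 0.11 and the FLCNKO libraries by 0.02. The group ranges did not overlap, but with n = 2 per group no unequal change is read from this.

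Serping1 (ENSMUSG00000023224), whose product inactivates C1r and C1s, measured 16.10 and 15.91 in WT against 14.84 and 14.79 in FLCNKO. Its log2 fold change was -1.19 ± 0.12 (SE, n = 2 per group), with the largest distance between the groups of the 9 genes, 1.07. C1s1 minus Serping1 was -0.19 and -0.09 in WT against -0.08 and -0.15 in FLCNKO, with overlapping ranges. Serping1 minus C1ra was 2.01 and 1.98 in WT against 1.63 and 1.91 in FLCNKO, and C1s1 minus C1ra was 1.82 and 1.89 against 1.55 and 1.76. Neither of these ranges overlapped, and the group means differed by -0.23 and -0.20. The FLCNKO libraries alone differed by 0.27 and 0.21, so no unequal change is read from this.

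C3 and C4b, the genes of the effector proteins, varied most between the FLCNKO libraries and in opposite order. C3 (ENSMUSG00000024164), the protein on which all activation routes converge, measured 17.72 and 17.80 in WT against 16.80 and 15.88 in FLCNKO. Its log2 fold change was -1.42 ± 0.32 (SE, n = 2 per group), and it was -1.88 without FLCNKO replicate 1 and -0.96 without FLCNKO replicate 2. C4b (ENSMUSG00000073418) had 17.46 and 17.54 in WT against 16.41 and 16.77 in FLCNKO, a log2 fold change of -0.91 ± 0.17, and was the 1 gene of the 9 that was higher in FLCNKO replicate 2 than in replicate 1. C3 minus C4b was 0.26 in both WT libraries, 0.39 in FLCNKO replicate 1 and -0.89 in FLCNKO replicate 2. Of the 31-base stretches of C4b, 48.3% occur in transcripts of its copy C4a, while C3, Cfd, Serping1 and the C1q genes share 0% with other genes. C4a measured 11.56 in WT replicate 1 and of 7.30, 6.60 and 7.13 in the other libraries.

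Cfd (ENSMUSG00000061780), which encodes adipsin, measured 20.06 and 19.93 in WT against 19.02 and 18.71 in FLCNKO. Its log2 fold change was -1.13 ± 0.21 (SE, n = 2 per group). In the WT libraries 5 and 6 genes had a higher value than Cfd, and in the FLCNKO libraries 10 and 13. Cfd thus stayed among the genes with the highest values in all 4 libraries while being lower in both FLCNKO libraries.

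Several marker lists had a negative median log2 fold change, but not all of them separated the groups as the 9 genes did. Skeletal muscle markers had the largest median log2 fold change of the lists, -3.11, with 10 of 10 negative but 9 of 10 overlapping between the groups. On this list limma called 0 (0 at an unadjusted p under 0.05, against 10.3% lower and 12.1% higher over all genes). The muscle median was 13.66 and 10.76 in WT against 12.53 and 5.11 in FLCNKO. FLCNKO replicate 2 stood apart, and WT replicate 2 lay under FLCNKO replicate 1. The muscle marker Acta1 had a log2 fold change of only -0.05. Of 3 epithelial markers limma called 1 lower (0.614% of all genes), Trp63 (log2 fold change -2.52, adjusted p = 0.0478), named after its values were seen. The epithelial median was 7.51 and 8.02 in WT against 7.10 and 7.51 in FLCNKO. The part of these tissues in the complement values was not tested. In a tissue library fewer cells of a type and less RNA per cell cannot be told apart. Of 12 macrophage markers 12 had a negative log2 fold change (median -0.69), and 10 did not overlap with FLCNKO lower (25.4% of all genes). Of the 12, limma called 1 lower (0.614% of all genes), Lyve1, named after its values were seen. The summed macrophage level on the log2 scale was 17.51 and 17.28 in WT against 16.69 and 16.42 in FLCNKO. The macrophage genes Csf1r, Cd68 and Adgre1 had log2 fold changes of -0.72, -0.66 and -0.44. C1q minus the macrophage median was 2.40 and 2.33 in WT against 1.77 and 1.89 in FLCNKO. That median is of the levels in a library, 12.23 and 12.06 in WT against 11.88 and 11.52 in FLCNKO. It follows middle-level genes such as Adgre1 and moved less than the median log2 fold change of -0.69. The mean of the C1q genes moved by -0.98. C1q minus Csf1r was 0.20 and 0.18 in WT against -0.01 and -0.14 in FLCNKO. The C1q genes were thus further apart between the groups than Csf1r, Cd68, Adgre1 and the list's median. They were not all further apart than every marker, since Lyve1 had a log2 fold change of -1.56. Timd4, also named after its values were seen, had -0.96, past C1qb (-0.90) but not C1qa (-1.04) or C1qc (-1.01). The part of macrophage content in the result was not tested.

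**Figure D2:**
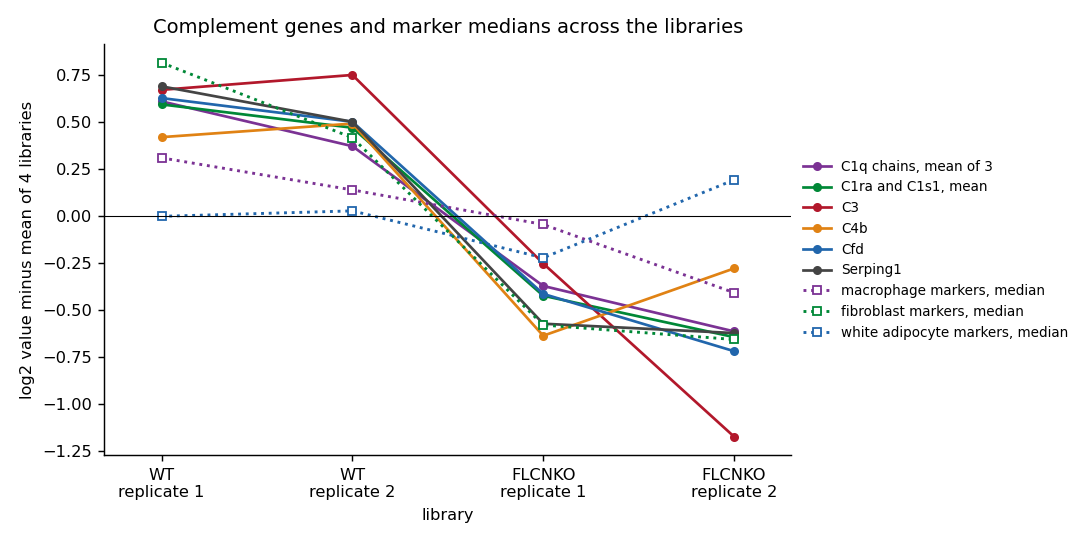
Log2 value minus the mean of the 4 libraries (vertical axis) in each library (horizontal axis), for the complement genes (filled circles, solid lines) and the medians of 3 marker lists (open squares, dotted lines); lines only join the points of a gene or list. The fibroblast median runs with the complement genes, the macrophage median is flatter and the white adipocyte median does not separate the groups. Each median is of the levels in a library, so it follows the list's middle-level genes and not its median log2 fold change. For fibroblasts these are Col1a1 (log2 fold change -1.25) and Pi16 (-1.22), and for macrophages they include Adgre1 (-0.44).

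Of 10 fibroblast markers 10 were lower without overlap (median log2 fold change -0.96), against 25.4% of all genes. Of the 10, limma called 2 lower (0.614% of all genes), Col1a1 and Col1a2, the latter named after its values were seen. The summed fibroblast level on the log2 scale was 20.13 and 19.98 in WT against 19.11 and 19.04 in FLCNKO. The mean of C1ra and C1s1 minus the fibroblast median was -1.33 and -1.05 in WT against -0.95 and -1.10 in FLCNKO. Serping1 minus that median was -0.23 and -0.02 in WT against -0.09 and -0.07 in FLCNKO. In both cases the group ranges overlapped, as they did for C3 (1.40 and 1.87 in WT, 1.87 and 1.02 in FLCNKO) and for C4b (1.14 and 1.61 in WT, 1.48 and 1.91 in FLCNKO). This median is of the levels in a library and rests on Col1a1 (log2 fold change -1.25) and Pi16 (-1.22, named after its values were seen). These fell most of the 10, so the overlap does not hold for the list in general. Against the single fibroblast marker Pdgfra the mean of C1ra and C1s1 did not overlap, with 1.32 and 1.32 in WT against 1.03 and 1.24 in FLCNKO. The part of fibroblast content in these differences was not tested.

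Of the 10 white adipocyte markers 9 had a negative log2 fold change, with a median of -0.10. With FLCNKO lower, 2 did not overlap (25.4% of all genes), Adipoq (-0.46) and Retn (-0.44, named after its values were seen). On this list limma called 0 of 10 (2 lower and 0 higher at an unadjusted p under 0.05, against 10.3% and 12.1% of all genes). The summed adipocyte level was 21.44 and 21.43 in WT against 21.38 and 21.43 in FLCNKO. Cfd minus the adipocyte median was 2.59 and 2.44 in WT against 1.77 and 1.05 in FLCNKO. Against Fabp4, the fatty acid carrier of adipocytes, Cfd went from -0.22 and -0.30 to -1.56 and -1.52, and against Adipoq, the adiponectin gene, from 1.74 and 1.76 to 1.30 and 0.86. The group ranges did not overlap on any of these 3 scales, and the difference between group means was -1.10 against the median, -1.28 against Fabp4 and -0.67 against Adipoq.

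**Figure D3:**
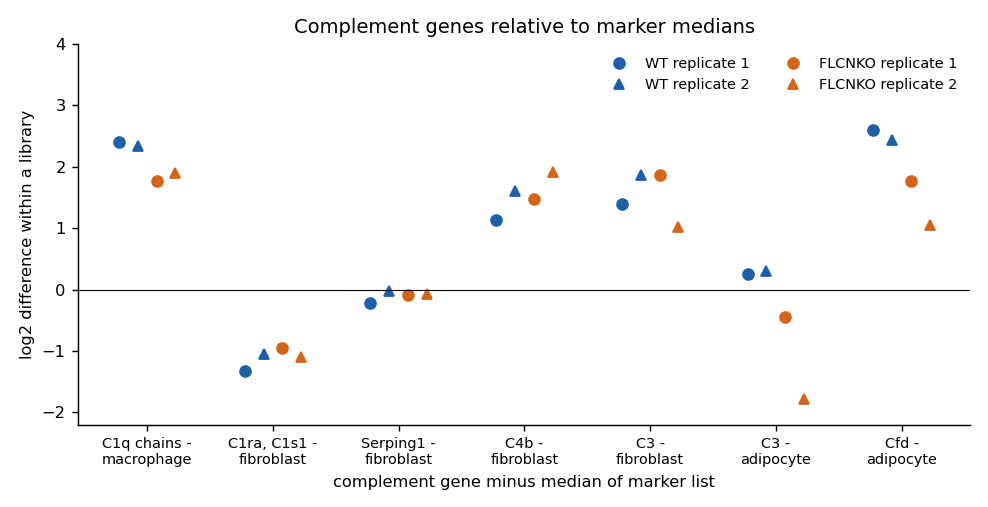
Log2 difference within a library (vertical axis) between complement genes and the median of a marker list (horizontal axis), WT in blue and FLCNKO in orange, circles for replicate 1 and triangles for replicate 2; only changes between libraries can be read, since values are not per transcript length. The groups overlap for C1ra with C1s1, Serping1, C4b and C3 against the fibroblast median level. They are apart for C1q against the macrophage median level and for Cfd and C3 against the adipocyte median level.

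Beyond the 9, a list of 51 other complement genes was used, of which 40 had a value. limma called 2 of the 40 lower and 1 higher at an adjusted p under 0.05, against 0.614% and 0.98% of all genes. At an unadjusted p under 0.05 it called 10 lower and 5 higher, against 10.3% and 12.1%. The groups did not overlap in 18 with FLCNKO lower and 7 with FLCNKO higher, against 25.4% and 29.2%. The median log2 fold change was -0.38, or -0.13 without WT replicate 2, -0.23 without FLCNKO replicate 1 and -0.57 without WT replicate 1. With all libraries it was -0.55 for the 18 genes with a mean of at least 10 and -0.06 for the 22 with a lower mean. Of the 18, the groups did not overlap in 12 with FLCNKO lower and in 4 with FLCNKO higher. The 3 calls were lost when any 1 of the 4 libraries was left out, as were those of all other genes.

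Among soluble regulators, Clu, the gene of clusterin, and Vtn, that of vitronectin, both inhibitors of the membrane attack complex, had log2 fold changes of -1.04 ± 0.21 and -1.03 ± 0.22 and did not pass (adjusted p from limma = 0.0792 and 0.0872; Vtn was named after its values were seen). Cpn2, a subunit of the carboxypeptidase that trims the anaphylatoxins, went the other way. It measured 6.04 and 7.30 in WT against 10.68 and 9.94 in FLCNKO and rose by 3.64 ± 0.50 (limma adjusted p = 0.0478). Leaving out WT replicate 1 gave a log2 fold change of 3.01, and leaving out WT replicate 2 gave 4.27. Of the 13677 genes, 13137 and 12058 had a higher value than Cpn2 in WT replicates 1 and 2. Cpn1, the gene of the catalytic subunit, named after its values were seen, was low in all 4 libraries, between 4.14 and 6.34, and did not pass (adjusted p = 0.942).

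Of the membrane regulators limma called 0 of 6 (1 lower and 1 higher at an unadjusted p under 0.05, against 10.3% and 12.1% of all genes). Cd55, whose product dissociates the C3-cleaving enzymes, measured 13.02 and 12.75 in WT against 11.94 and 11.70 in FLCNKO, a log2 fold change of -1.06 ± 0.15 (n = 2 per group, errors are SE; adjusted p from limma = 0.0505). Cd59a, whose product blocks the membrane attack complex, had 13.29 and 13.14 in WT against 13.72 and 14.11 in FLCNKO, a log2 fold change of 0.70 ± 0.17 (adjusted p = 0.0987). Its copy Cd59b had a log2 fold change of -0.11 ± 0.22 (adjusted p = 0.803). The log2 fold changes of Cd55 and Cd59a had opposite signs, and neither passed.

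Among receptors Itgam, the alpha chain of complement receptor 3, measured 12.55 and 12.44 in WT against 11.44 and 11.25 in FLCNKO. It fell by 1.15 ± 0.12 (n = 2 per group, errors are SE; adjusted p from limma = 0.0404), and 68.1% of its stretches occur in other gene models. Its partner chain gene Itgb2 had a log2 fold change of -0.58 ± 0.14 (adjusted p = 0.0972). C1qbp, named as a C1q-binding protein and mainly found in mitochondria, had 12.13 and 12.10 in WT against 12.92 and 12.66 in FLCNKO, a log2 fold change of 0.68 ± 0.13 (adjusted p = 0.0693). Cr2, a receptor of B cells, chosen after its values were seen, had 10.46 and 8.34 in WT against 8.32 and 6.36 in FLCNKO and did not pass (adjusted p = 0.272). The B cell markers Ms4a1 and Cd79a, also chosen so, were likewise highest in WT replicate 1 and lowest in FLCNKO replicate 2. Ms4a1 had 10.67 and 9.27 in WT against 8.60 and 6.91 in FLCNKO, and Cd79a had 10.79 and 8.10 against 7.54 and 6.43. The part of B cell content in the Cr2 values was not tested.

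**Figure D4:**
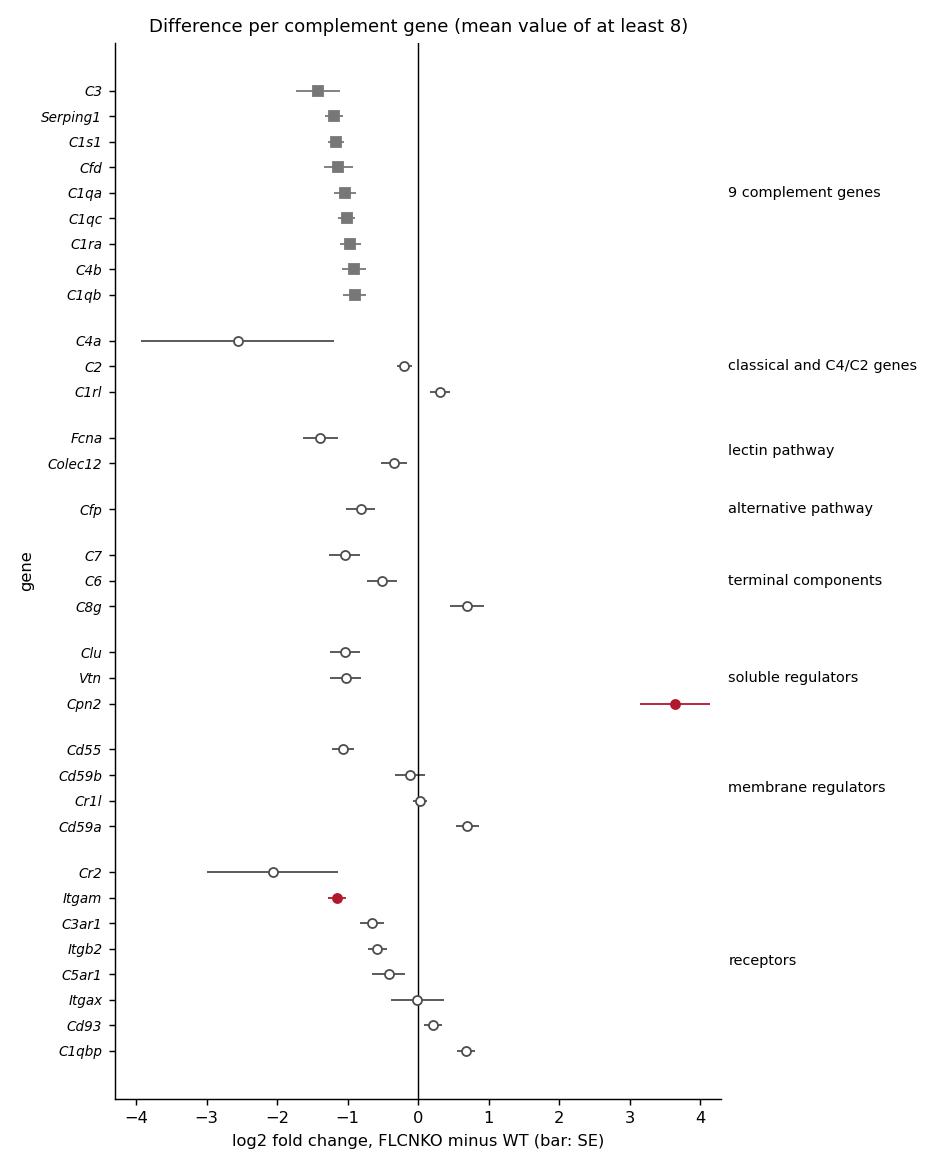
Log2 fold change, FLCNKO minus WT (horizontal axis, bars are SE), of the 9 genes (grey squares) and of other complement genes (circles), grouped by role. The genes shown have a mean value of at least 8. Circles filled red mark an adjusted p under 0.05 from limma. The 9 lie between -1.42 and -0.90, while other genes lie on both sides of 0.

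In the remaining groups limma called 0 of 17 genes. At an unadjusted p under 0.05 there were 3 lower and 1 higher, against 10.3% and 12.1% of all genes. Fcna, the gene of ficolin A, a recognition protein of the lectin pathway, measured 13.04 and 12.52 in WT against 11.63 and 11.15 in FLCNKO, a log2 fold change of -1.39 ± 0.25 (n = 2 per group, errors are SE; adjusted p from limma = 0.0641). Masp2, the lectin pathway protease gene, and the collectin gene Colec12 had -0.61 ± 0.31 and -0.35 ± 0.19 (adjusted p = 0.32 and 0.343). In the alternative pathway Cfp, which encodes the stabiliser properdin, had -0.82 ± 0.20 (adjusted p = 0.105). Cfb, the gene of the factor D substrate, was low, between 5.94 and 6.36, with a log2 fold change of 0.13 ± 0.54, and 75.5% of its stretches are shared. C2, the partner of C4, had -0.19 ± 0.11 (adjusted p = 0.381), and C1rl, a relative of C1r, 0.31 ± 0.14 (adjusted p = 0.285).

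Of the terminal components, which form the membrane attack complex, C7 measured 13.82 and 14.02 in WT against 12.57 and 13.18 in FLCNKO, a log2 fold change of -1.04 ± 0.22 (n = 2 per group, errors are SE; adjusted p from limma = 0.0826). C6 had -0.51 ± 0.21 and C8g 0.69 ± 0.24 (adjusted p = 0.234 and 0.188). Several genes of liver-made components, chosen after their values were seen, were highest in WT replicate 2. In the order WT replicate 1, WT replicate 2, FLCNKO replicate 1 and FLCNKO replicate 2, Hc, the gene of C5, had 5.40, 8.23, 6.48 and 6.70. C9 had 2.37, 6.71, 2.68 and 5.0, C8a 2.68, 7.08, 1.0 and 2.37, and the mannose-binding lectin gene Mbl2 1.0, 6.71, 3.63 and 5.42. The lowest value of a library lay between 1.0 and 2.37, so some values of C9, C8a and Mbl2 lie at or near the floor. The hepatocyte marker median in the same order was 5.61, 9.99, 6.65 and 6.56, and Alb, the albumin gene, had 12.10, 14.43, 11.02 and 11.63. Serpina1a of the same list, chosen after its values were seen, was instead highest in FLCNKO replicate 2, with 5.82, 10.53, 7.68 and 10.84. The part of RNA from other tissue in these values was not tested. Of the 9 genes, 7 were higher in WT replicate 1 than in WT replicate 2, with C3 and C4b the exceptions.

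The C1q genes lie side by side in the genome, as do C1ra and C1s1, with no other protein-coding gene between them in the RefSeq annotation. Their nearest measured neighbours, looked up after the values were seen, did not share the direction. Beside the C1q genes, Ephb2 had a log2 fold change of 0.22 ± 0.17 and Zbtb40 of 0.22 ± 0.15 (n = 2 per group, errors are SE; adjusted p from limma = 0.503 and 0.463). Beyond C1s1, Lpcat3, which encodes a phospholipid-remodelling enzyme, measured 12.31 and 12.49 in WT against 13.35 and 13.22 in FLCNKO and rose by 0.88 ± 0.12 (limma adjusted p = 0.0478), a call lost, like all others, when any 1 library was left out.

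Over the 4 libraries, the profiles most like the C1q mean were sought among 11302 other genes with a mean of at least 8, as the Euclidean distance between values centred on each gene's mean. The nearest were the cathepsin gene Ctsh (distance 0.038), C1qtnf1 of the C1q and TNF related family (0.057), the matrix proteoglycan gene Vcan (0.066), the procollagen protease gene Bmp1 (0.071) and the mannosidase gene Man1a (0.074). Among complement genes C1ra stood at 0.084 and Cd55 at 0.085, while C4b stood at 0.48 and C3 at 0.69. With 4 libraries such distances mostly describe the group difference.

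Flcn (ENSMUSG00000032633), the targeted gene, measured 12.36 and 12.21 in WT against 12.35 and 12.12 in FLCNKO (log2 fold change -0.05 ± 0.13, n = 2 per group, error is SE; adjusted p from limma = 0.852). The deleted part is not given and the tissue holds other cells, so this value does not check the labels, and the direction of every difference rests on them. Over all genes, a pair of libraries differed at the median by 0.147 in log2 units within WT, by 0.247 within FLCNKO and by 0.268 to 0.307 across the groups.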

How the data were processed

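Per the labels, RNA of inguinal fat was isolated with Trizol and column cleanup. What the authors deposited is a log2 value per gene and library, for 13677 Ensembl identifiers. Per the submitters' processing notes, STAR, limma and mm9 were used. The sources used here name no counting program, annotation or strand setting. Library medians lay between 10.7636 and 10.7645, so the deposited log2 values had been made nearly equal in distribution, and a shift shared by most genes would not show. Symbols were matched by identifier for 13592 genes.

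The 2 groups entered a limma fit (version 3.58.1, R 4.3.3) with group as the only term, variances moderated with a mean trend (residual degrees of freedom 2, prior 3.09), two-sided tests and Benjamini-Hochberg adjustment over all genes at a threshold of 0.05. No filter was applied. The accuracy of the calls from this fit was not tested. The members, lists, motifs and named-gene rule (the 9 genes, called genes, up to 3 per list with the smallest p, defining markers and the 5 nearest profiles) were chosen with earlier results of these data known. An exact permutation test of C1q against C1r and C1s was planned, but it cannot go below p = 0.333 with 2 libraries against 2 and is not used. Sequence sharing was measured on GENCODE transcripts in stretches of 31 bases. Alternatives were a filter on a mean of 8, repeated quantile normalization, median centring, no trend, robust moderation, a replicate block and leaving out each library. Figures were drawn with matplotlib 3.10.9. Some items are counted in list totals but are not reported here.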

Additional observations from a re-analysis of the deposited data

How the results depend on the processing

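Under the 10 alternatives the log2 fold changes of the 9 genes ran from -1.88 to -0.73. Their negative sign was fixed beforehand and shows no robustness. The filter, trend, robust moderation and block settings leave a fold change as it is, and both rescalings hardly move it. Leaving out 1 library cannot reverse a gene whose FLCNKO values all lie under its WT values. The count called lower by limma, 3 of 9, was 5 with a filter on a mean of 8 (138 of 11311 over all genes), 5 with robust moderation (143 of 13677), 0 without the trend and 0 to 0 when any 1 library was left out. Without the trend and without any 1 library 0 of all 13677 genes were called, so these losses are not particular to the 9. Repeated quantile normalization and median centring left 3. Of the other complement genes, 2 lower and 1 higher were called, and 0 lower and 0 higher without the trend or when any 1 library was left out (0 to 0). The filter removed 15 of the 40. Since libraries share replicate numbers, a fit with a replicate block was run, which called 6 of the 9 lower and 9 lower and 2 higher of the other 40, while the calls over all genes went from 84 to 441 lower and from 134 to 401 higher. The correlation of same-numbered deviations was 0.36 across genes, but 2 pairs cannot show that the numbers pair the libraries. Leaving out 1 library moved C1q minus C1r and C1s between 0.025 and 0.139. It gave ranges that cross 0 for Cfb (-0.081 to 0.33), Cd59b (-0.24 to 0.0083), Mbl2 (-2.18 to 3.53), C9 (-2.87 to 1.47), Hc (-1.63 to 1.19) and Flcn (-0.17 to 0.063). The cause of these changes was not tested. The depth is unknown, so no counting error is given.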
